A study of Mus musculus with 96 samples.

Results

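Canonical Polycomb repressive complex 1 (PRC1) holds 1 chromobox (CBX) protein and 1 polyhomeotic (PHC) protein, and the genes for these subunits were examined here in mouse embryonic stem cells (ESCs) in which RYBP, its partners or its level had been altered. Cbx2, Cbx6, Cbx7 and Cbx8 of the CBX group and Phc1, Phc2 and Phc3 of the PHC group were chosen by name, as subunits of the complex, and are 7 of the 37620 genes in the count tables. All 7 had a row in each of the 7 tables, and all passed the filter on low counts in every table. RNA was sequenced in 7 comparisons with 2 libraries per group, and chromatin immunoprecipitation (ChIP-seq) peak lists were available for RING1B, STAT3, WDR5, H3K4me3 and H3K27ac.

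The Rybp knockout compared Rybp-floxed ESCs of the R7.15 line in plain ESC medium (Rybp+/+) with the same line given 5 µM 4-hydroxytamoxifen (4-OHT) for 4 days (Rybp-/-). In R1 ESCs, short hairpin RNAs against Rybp (shRybp) or Wdr5 (shWdr5) were each compared with an empty-vector control (shEV), a Stat3 knockdown (shStat3) was compared with shEV for RING1B ChIP-seq alone, and a line carrying the TF-AA mutation, a term that the labels do not explain, was compared with WT. The phase disruption comparison used R7.15 cells of genotype RYBPfl/fl Rosa26::CreERT2 that all received 4-OHT, with either overexpressed WT RYBP or RYBP lacking 21 amino acids. RYBP was induced with doxycycline (DOX) in J1 ESCs carrying Tet-on RYBP and compared with vehicle. The rTRS line, which carries a DOX-inducible Rybp_Stat3 integration, was compared with and without DOX (NTC); the table column taken as its second DOX library carries the name S5 in place of rTRS, which is not explained, so that assignment is a judgement. RING1B and STAT3 ChIP-seq with and without DOX used an R1 line with the DOX-inducible Rybp_Stat3 integration. The parent strain of the rTRS line is not given in the sources used here, so whether these are the same line is not known. All were ESC lines grown in serum with leukaemia inhibitory factor. The labels do not say whether the 2 libraries of a group came from separate cultures, so p-values measure the spread between these libraries, which may be technical. The altered lines are single named lines, and whether each is 1 clone is not given in the sources used here.

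PRC1 is an E3 ligase that ubiquitinates histone H2A through RING1A or RING1B paired with a PCGF protein. In the canonical form a CBX chromodomain reads H3K27me3, the mark of PRC2, and a PHC protein polymerises through its SAM domain and brings distant nucleosomes together. In the variant forms RYBP or its paralogue YAF2 takes the place of CBX on RING1B, so the CBX genes and Rybp encode alternative partners of the same core. CBX7 is known as the main CBX of pluripotent cells, whereas Cbx2 and Cbx8 are known as genes that rise when ESCs differentiate.

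RefSeq promoter sequences (GRCm38.p6) were matched by symbol for 6 of the 7 members, 8 promoters in all; Cbx2 was not matched. The 250 bases before the start site were searched for the E-box CACGTG, read by MAX-containing and other bHLH factors, and for the STAT motif TTCNNNGAA, both of which read the same on the other strand. The E-box was present in the promoters of Cbx6, Cbx8, Phc2 (its 5′ promoter) and Phc3, and in 6.02% of 32851 promoters of the same length. It was absent from those of Cbx7 and Phc1 and from the other two of Phc2. TTCNNNGAA was present in the Phc1 promoter only among the members, and in 7.02% of all promoters. These motifs were chosen after the sequences had been seen, and a match in letters is not a binding site. The sequences are those of Phc2, Cbx8 and Cbx7, the members on which the peak results turn, each cut before the first base of an annotated exon, with CACGTG in capitals. Their places in NCBIM37 (mm9), found by exact match, are chr4:128331696-128331945 on the plus strand for the 5′ promoter of Phc2, chr4:128404565-128404814 on the plus strand for the internal promoter of Phc2, chr11:118902284-118902477 on the minus strand for Cbx8 and chr15:79763083-79763326 on the minus strand for Cbx7.
Phc2 5′ promoter: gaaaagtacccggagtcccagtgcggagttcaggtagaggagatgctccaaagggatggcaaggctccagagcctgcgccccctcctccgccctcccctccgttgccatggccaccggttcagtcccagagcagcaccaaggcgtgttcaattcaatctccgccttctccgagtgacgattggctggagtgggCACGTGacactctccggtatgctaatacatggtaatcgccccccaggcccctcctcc
Phc2 internal promoter: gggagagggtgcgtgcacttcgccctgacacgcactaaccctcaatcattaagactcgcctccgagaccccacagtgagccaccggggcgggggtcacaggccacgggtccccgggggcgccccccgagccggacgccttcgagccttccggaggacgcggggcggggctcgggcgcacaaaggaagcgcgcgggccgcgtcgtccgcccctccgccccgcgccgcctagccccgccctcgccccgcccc
Cbx8 promoter: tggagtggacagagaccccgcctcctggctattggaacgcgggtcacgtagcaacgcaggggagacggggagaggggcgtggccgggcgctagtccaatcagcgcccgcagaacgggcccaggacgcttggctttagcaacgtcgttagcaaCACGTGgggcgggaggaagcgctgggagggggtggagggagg
Cbx7 promoter: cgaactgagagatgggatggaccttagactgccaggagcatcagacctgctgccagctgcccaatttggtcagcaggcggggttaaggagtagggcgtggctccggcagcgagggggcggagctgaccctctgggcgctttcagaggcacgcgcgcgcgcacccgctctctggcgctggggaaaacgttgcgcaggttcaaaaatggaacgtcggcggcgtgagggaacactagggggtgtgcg
The internal Phc2 promoter held 34 CpG dinucleotides in its 250 bases, more than 96.5% of all promoters, whose median was 6. The Cbx7 promoter held 23, the Cbx8 promoter 22 and the 5′ promoter of Phc2 13, each counted over 250 bases, whereas the remaining RefSeq promoter of Phc2, at chr4:128365732-128365981, held 1 and was overlapped by no peak in any of the 14 lists.

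In GENCODE vM1 (NCBIM37), Cbx2 lies at chr11:118884276-118892584 on the plus strand and Cbx8 at chr11:118897619-118902283 on the minus strand, 5035 bp apart and tail to tail. Cbx6 lies at chr15:79654326-79665118 and overlaps Npcd on the same strand, so its read counts are uncertain. Cbx7 lies at chr15:79746237-79801549, Phc1 at chr6:122267749-122290579, 51 bp from M6pr, and Phc3 at chr3:30798217-30868337, all on the minus strand. The Cbx7 promoter printed above is internal to this span, away from the outermost start site of the gene. Phc2 spans chr4:128331982-128430125 on the plus strand with 12 annotated start sites.

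Reads assigned to genes ranged from 14512857 to 81049618 per library. The targeted transcripts followed the labels in 4 tables. Rybp was at 110 and 110 CPM (read counts scaled to a common library total) in Rybp+/+ and at 24.8 and 25 CPM in Rybp-/-, at 85.7 and 86.4 CPM in shEV and at 35.8 and 36.6 CPM in shRybp, and at 135 and 145 CPM with vehicle and at 522 and 535 CPM with DOX in the Tet-on RYBP cells. Wdr5 was at 350 and 343 CPM in shEV and at 60 and 58.2 CPM in shWdr5. In the rTRS line Rybp was at 113 and 110 CPM without DOX and at 102 and 99.8 CPM in the libraries labelled DOX (log2 fold change -0.15 ± 0.06 SE, edgeR adjusted p = 0.076), and Stat3 was at 159 and 172 CPM without DOX and at 191 and 188 CPM with it (0.20 ± 0.06, edgeR adjusted p = 0.026). With the RYBP deletion Rybp was at 662 and 626 CPM against 749 and 753 CPM with WT RYBP, both overexpressed. The gene-level counts of the rTRS table did not show a rise of Rybp in the libraries labelled DOX. The same shEV libraries stand in both knockdown tables, with 0.504 to 0.566 times as many reads on the members in the Wdr5 table as in the Rybp table, so those 2 comparisons share their controls.

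All 10 ESC markers examined, among them Pou5f1 and Nanog, were detected in every library, at a summed level of 3660 to 9150 CPM. Markers of other cell types moved in some comparisons. Fibroblast markers summed to 56.5 to 57.2 CPM in Rybp+/+ and 114 to 120 CPM in Rybp-/-, with 6 of 7 higher, and primitive endoderm markers to 8.59 to 9.83 and 16.3 to 17.7 CPM, with 3 of 6 higher. Of 4 trophectoderm markers 3 were also higher in Rybp-/-, at sums of 4.09 to 4.41 and 5.29 to 5.39 CPM; of these, Cdx2 (2 and 2 reads against 46 and 13 in Rybp-/-) and Elf5 (5 and 4 against 23 and 34) had enough reads only in Rybp-/-. With shRybp the fibroblast sum went from 18.6 to 18.8 CPM to 30.7 to 31.9 CPM, with 3 of the 3 tested higher. In the rTRS line the trophectoderm markers summed to 10.3 to 12.3 CPM without DOX and 43 to 49.3 CPM in the libraries labelled DOX, with 3 of the 3 tested higher. Mesoderm markers summed to 11.9 to 14 and 57.2 to 62.6 CPM (2 of 4 higher) and primitive endoderm markers to 7.78 to 9.41 and 20.7 to 21.3 CPM (1 higher and 1 lower of 6); Eomes, at 11 and 9.21 CPM without DOX and 29.8 and 26 CPM with it, is in both the trophectoderm and the mesoderm list, so these sums are not separate. In the same libraries 8 of the 10 ESC markers were lower and their sum fell from between 5670 and 5930 CPM to between 3700 and 3950 CPM. Of 6 primitive endoderm markers, 4 were higher and 1, Sox7, was lower in each knockdown, and their sum went from 16.9 to 20.6 CPM to 29 to 30.9 CPM with shRybp and from 16.6 to 19.9 CPM to 36.2 to 36.3 CPM with shWdr5. In the TF-AA table fibroblast markers went from 11 to 11.7 CPM to 24 to 24.7 CPM, with Col3a1, Dcn and Lum at 0 throughout, and primitive endoderm markers from 10.8 to 11.4 CPM to 19.8 to 20.1 CPM (2 of the 4 tested higher). With the RYBP deletion fibroblast markers went from 424 to 431 CPM to 343 to 367 CPM (3 of 7 lower) and mesoderm markers from 30.4 to 31.8 CPM to 18.7 CPM (1 of the 3 tested lower). Neural markers summed to 307 to 320 CPM in shEV and 228 to 231 CPM with shRybp, to 289 to 302 and 174 to 185 CPM in the Wdr5 table, and to 135 to 147 and 76.3 to 83.2 CPM in the rTRS table. The ESC marker sum was also lower in both knockdowns (8830 to 9150 CPM against 7440 to 7470 CPM with shRybp, and 8300 to 8610 CPM against 7060 to 7110 CPM with shWdr5). Of the 10 ESC markers, 4 were higher and 5 lower with shRybp, and 2 were higher and 7 lower with shWdr5. In Rybp-/- the ESC sum was higher, at 5970 to 6000 CPM against 5380 to 5550 CPM in Rybp+/+, with 6 markers higher and 3 lower. The part of these shifts in the members' values was not tested. In bulk RNA, a change in the share of cells and a change in RNA per cell cannot be told apart.

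Per length, the order of the 7 transcripts was led by Phc1 and Cbx7 in every table. In control libraries Phc1 was at 62.2 to 125 CPM per kilobase of gene length (RPKM), at the 93.3rd to 97.4th percentile of tested genes, and Cbx7 at 25.2 to 57.9 RPKM. These ranges lay apart within each table. Cbx2 (5.19 to 16.7 RPKM), Cbx6 (4.53 to 11.5 RPKM) and Phc2 (3.25 to 6.54 RPKM) followed at middle levels, with changing order between tables. Cbx2 and Cbx6 overlapped in the WT controls of the TF-AA table (8.11 and 7.6 against 9.31 and 7.98 RPKM), and Cbx6 and Phc2 overlapped in the rTRS controls (6.03 and 5.43 against 6.54 and 5.6 RPKM). Phc3 was at 0.883 to 3.03 RPKM and Cbx8 at 0.076 to 1.37 RPKM, the lowest of the 7 in each table, at the 5.3rd to 23.3rd percentile. Cbx8 rested on 10 to 166 reads per library, which widens its error.

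**Figure D1:**
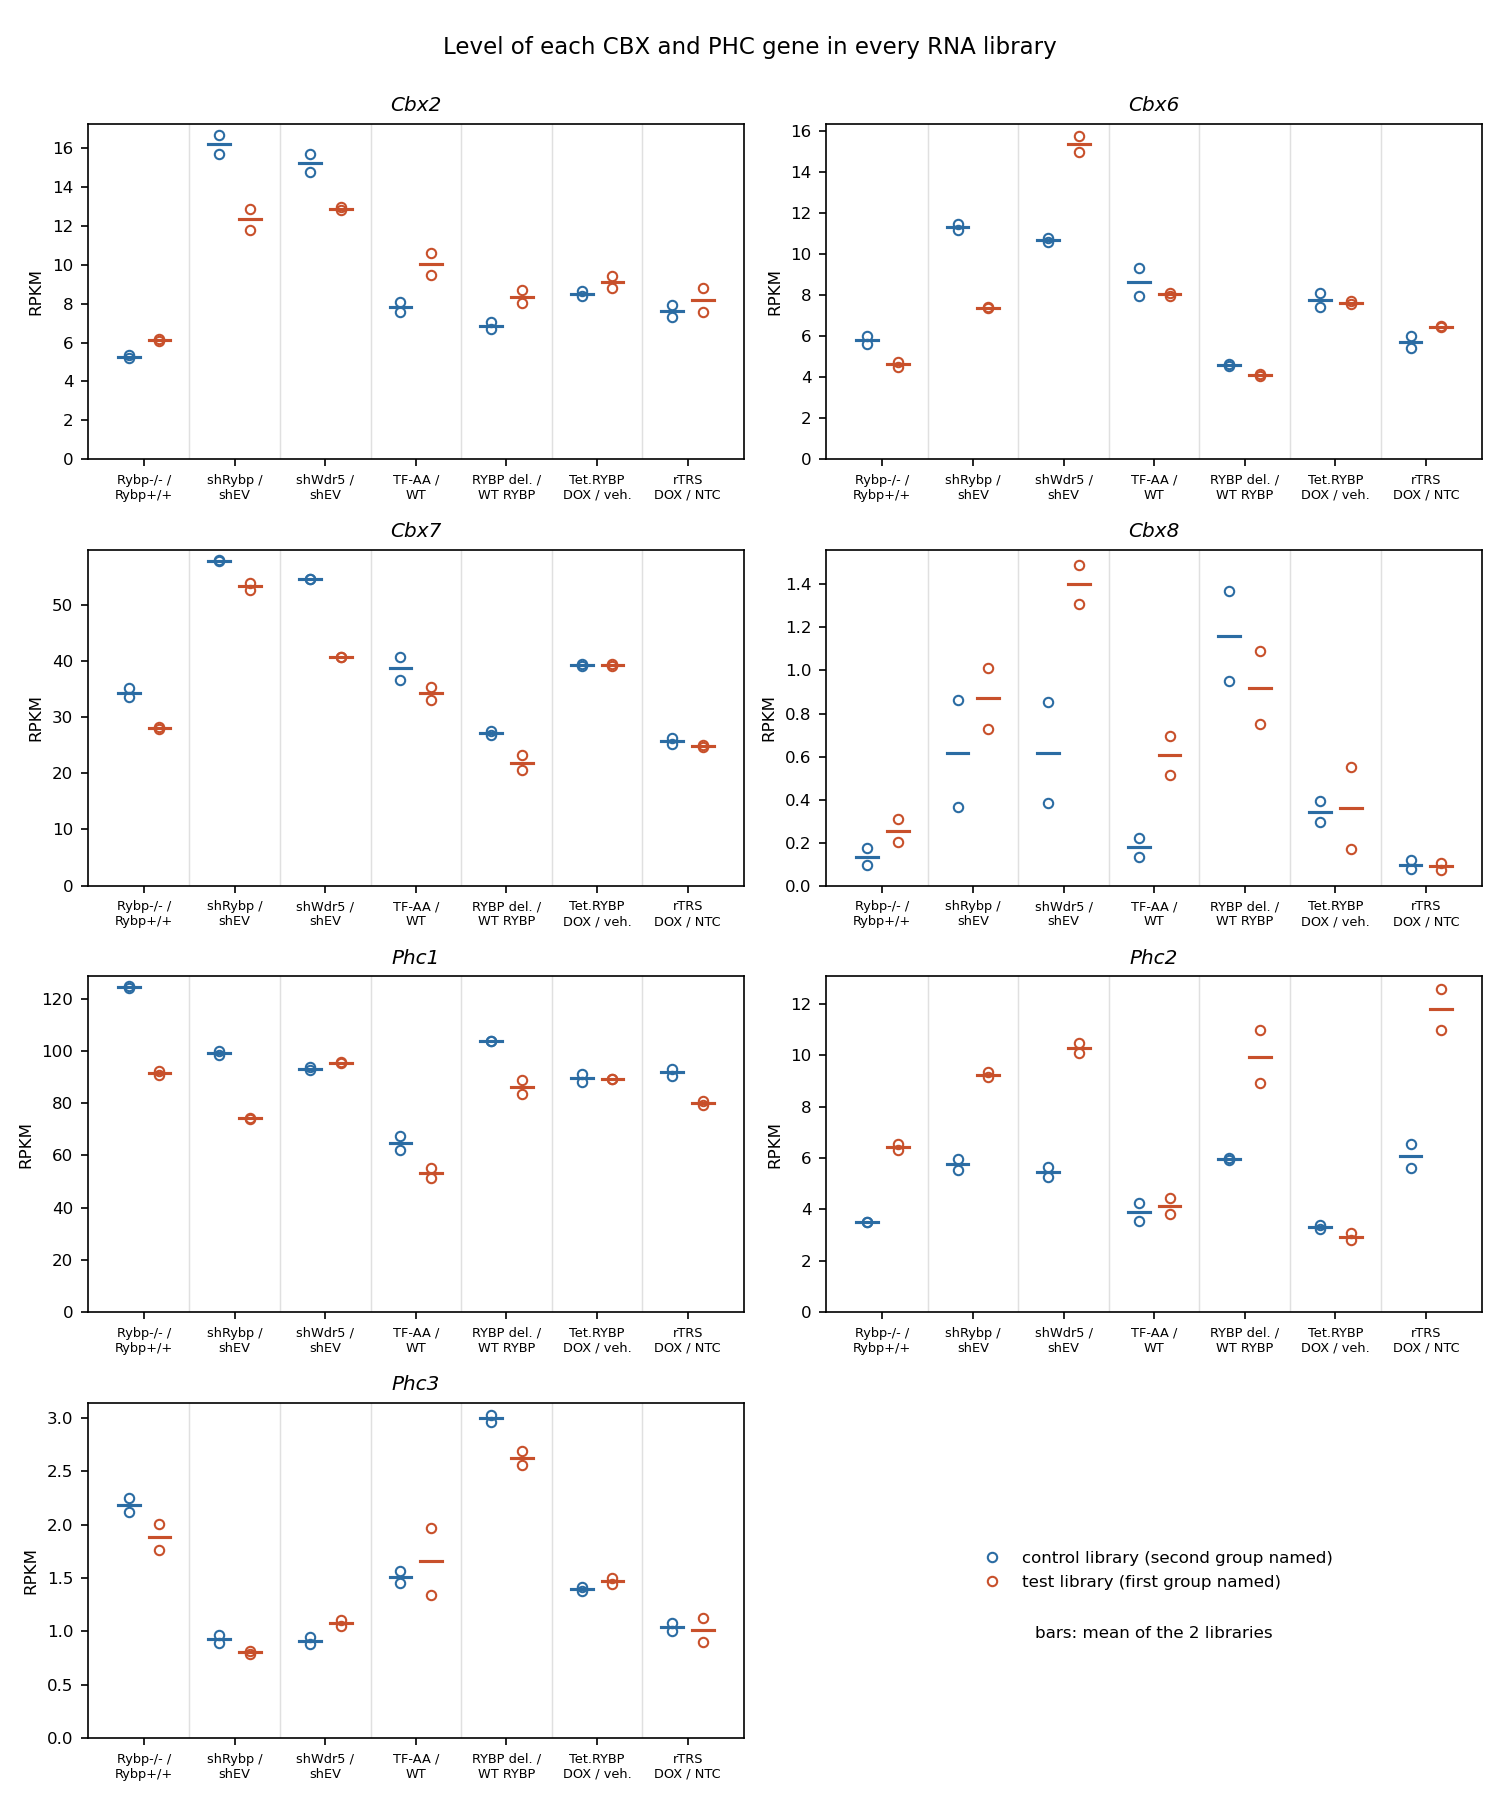
RPKM of each gene (vertical axis, from 0, on its own scale) in each of the 28 libraries of the 7 RNA tables (horizontal axis; the first group named is the test group). Open circles are libraries and bars are group means; for Phc2 the test libraries lie above both controls in 5 tables, and for Phc1 they lie below both controls in 5 tables. Groups that do not overlap were common, at 48.1% to 81% of all tested genes per table.

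Calls were made at an edgeR adjusted p under 0.05 over all tested genes. In the Rybp knockout 2 of the 7 members were higher and 4 lower, where 22.8% of 16955 tested genes were higher and 22.7% lower. In the Rybp knockdown 1 was higher and 4 lower, against 26.8% and 26% of 16538 genes. In the Wdr5 knockdown 4 were higher and 2 lower, against 31.5% and 31.5% of 15143 genes. With backgrounds this high, 1 or 2 of 7 members in a direction is near the background. In the TF-AA comparison 2 were higher and 1 lower, against 14.4% and 16.1% of 14456 genes. In the phase disruption comparison 2 were higher and 2 lower, against 16.1% and 17% of 14575 genes. In the RYBP induction no member was called in either direction, against 3.63% and 2.39% of 14937 genes; 0 members were under an unadjusted p of 0.05 in edgeR and 0 were called by DESeq2. In the rTRS comparison 1 was higher and 1 lower, against 23% and 20.4% of 16291 genes. With 2 libraries per group, groups that do not overlap were common: this held for 70.8% of tested genes in the Rybp knockout, 75.6% in the Rybp knockdown, 81% in the Wdr5 knockdown, 63.7% with TF-AA, 65% with the RYBP deletion, 48.1% with induced RYBP and 71.3% in the rTRS line. A lack of overlap is therefore given for the members as a description only. The median log2 fold change of the 7 members lay between -0.22 (Rybp knockout) and 0.24 (Wdr5 knockdown), while that of all tested genes lay between -0.007 and 0.018.

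**Figure D2:**
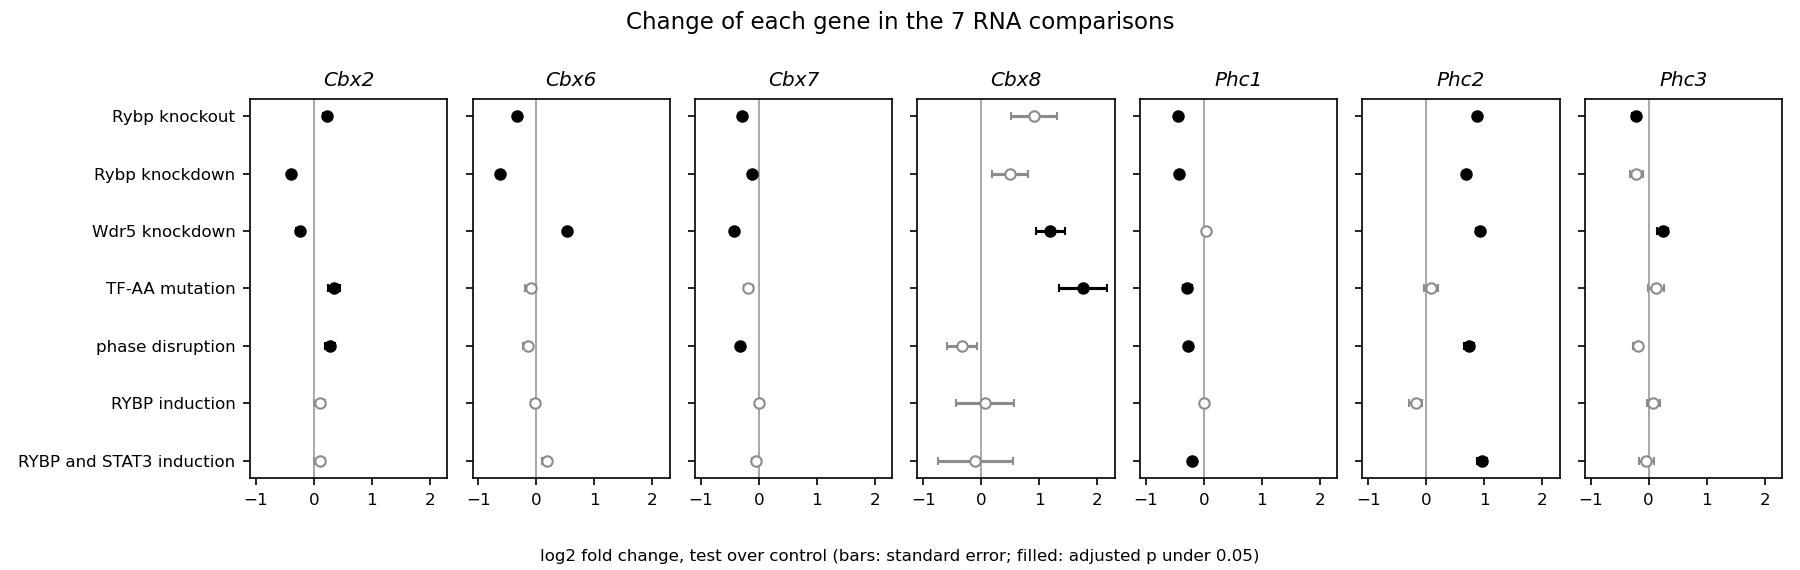
log2 fold change of test over control (horizontal axis) for each gene in the 7 RNA comparisons (rows), with bars of 1 standard error and filled points for an edgeR adjusted p under 0.05. Phc2 is filled and to the right of 0 in 5 rows, Phc1 is filled and to the left of 0 in 5 rows, and Cbx8 has the widest bars.

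Cbx7, the chromodomain protein that carries most canonical PRC1 in pluripotent cells, was lower in 4 comparisons and higher in none. It was at 217 and 228 CPM in Rybp+/+ and at 181 and 183 CPM in Rybp-/-, a log2 fold change of -0.29 ± 0.03 (SE, edgeR adjusted p = 1.4e-08). With shWdr5 it was at 264 and 264 CPM against 353 and 354 CPM in shEV (-0.42 ± 0.04, edgeR adjusted p = 1.4e-08). With the RYBP deletion it was at 133 and 151 CPM against 179 and 174 CPM with WT RYBP (-0.32 ± 0.06, edgeR adjusted p = 2.8e-05). In each of these the groups did not overlap, as for 65% to 81% of all tested genes in those tables. The falls were by 18.3%, 25.4% and 19.7%, at the 52.2nd to 65.1st percentile of absolute log2 fold changes. With shRybp it was at 342 and 349 CPM against 375 and 376 CPM, a fall by 7.96% (-0.12 ± 0.04, edgeR adjusted p = 0.024) that did not pass without shRybp replicate 1 (adjusted p = 0.2) or replicate 2 (0.088). In the TF-AA libraries it was at 230 and 214 CPM against 264 and 237 CPM in WT (-0.18 ± 0.08, edgeR adjusted p = 0.099), and it passed without WT replicate 2 (-0.26, adjusted p = 0.0029). The groups were close in the RYBP induction (254 and 256 CPM against 255 and 253 CPM with vehicle; 95% interval of the log2 fold change -0.09 to 0.10) and in the rTRS line (162 and 160 CPM with DOX against 171 and 164 CPM in NTC; -0.17 to 0.07).

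Cbx2, the CBX protein known for compacting nucleosomes and for forming condensates, changed in opposite directions in the knockout and the knockdown of Rybp. It was at 22.1 and 22.7 CPM in Rybp+/+ and at 26.3 and 25.8 CPM in Rybp-/- (0.22 ± 0.06, edgeR adjusted p = 0.0056), whereas it was at 66.9 and 71.3 CPM in shEV and at 50.3 and 55.1 CPM in shRybp (-0.39 ± 0.06, edgeR adjusted p = 4.5e-05). The groups did not overlap in either table, which held for 70.8% and 75.6% of all tested genes. The 2 tables differ in cell line and in means of depletion, and the difference between the changes was not tested. Without Rybp-/- replicate 1 the rise was 0.20 with an adjusted p of 0.051. Cbx2 was also lower with shWdr5 (54.7 and 55.4 CPM against 63.1 and 66.9 CPM in shEV; -0.24 ± 0.06, edgeR adjusted p = 0.0017). It was higher with the TF-AA mutation (45 and 40.5 CPM against 34.5 and 32.4 CPM in WT; 0.35 ± 0.10, edgeR adjusted p = 0.0085; 0.27 with adjusted p = 0.2 without TF-AA replicate 1). It was also higher with the RYBP deletion (34.2 and 37 CPM against 28.5 and 30 CPM with WT RYBP; 0.28 ± 0.09, edgeR adjusted p = 0.013). That last call was lost in DESeq2 (adjusted p = 0.099), without the low-count filter (0.064), and without WT RYBP replicate 1 or deletion replicate 2 (0.13 each). With induced RYBP it was at 40.1 and 37.6 CPM against 35.8 and 36.7 CPM with vehicle, and in the rTRS line at 37.4 and 32.3 CPM in the libraries labelled DOX against 31.2 and 33.9 CPM in NTC, neither of which passed.

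Cbx8, a CBX protein of differentiated cells, was the least abundant member and had the highest fold changes. With the TF-AA mutation it had 38 and 48 reads against 17 and 10 in WT, or 1.89 and 2.56 CPM against 0.812 and 0.494 CPM, a 3.37-fold higher level (log2 1.75 ± 0.41, edgeR adjusted p = 0.0018). The 10 reads of WT replicate 2 fell just short of the low-count filter. Cbx8 thus entered this test only through the TF-AA group, where it was high. With shWdr5 it had 103 and 114 reads against 30 and 62 in shEV, 2.29-fold higher (1.19 ± 0.25, edgeR adjusted p = 0.00026). Both rises passed the test. The shEV libraries lay apart, and the Wdr5 value moved to 0.71 without shEV replicate 1 (adjusted p = 0.0049) and to 1.87 without replicate 2 (1.2e-10). In Rybp-/- it had 86 and 57 reads against 27 and 52 (0.91 ± 0.39, edgeR adjusted p = 0.056), and it passed without Rybp+/+ replicate 2 (1.44, adjusted p = 0.013) or without Rybp-/- replicate 2 (1.19, 0.03). With shRybp it had 148 and 166 reads against 53 and 117 (0.50 ± 0.31, edgeR adjusted p = 0.19; 1.23 with adjusted p = 0.00014 without shEV replicate 2, and -0.01 with adjusted p = 0.98 without shEV replicate 1). In the other comparisons it had 59 and 41 against 80 and 56 reads (RYBP deletion), 63 and 22 against 39 and 50 (RYBP induction) and 14 and 20 against 22 and 15 (rTRS), with overlapping groups. No difference was detected, and the 95% intervals of the log2 fold change were -0.84 to 0.18, -0.93 to 1.04 and -1.38 to 1.18.

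Cbx6, a further chromodomain reader of this family, was lower after both forms of Rybp loss and higher after Wdr5 knockdown. It was at 59 and 63.2 CPM in Rybp+/+ and at 47.2 and 49.9 CPM in Rybp-/- (-0.33 ± 0.05, edgeR adjusted p = 1.3e-06). It was at 121 and 118 CPM in shEV and at 77.8 and 77.6 CPM in shRybp (-0.62 ± 0.05, edgeR adjusted p = 1.3e-08), a fall by 34.9%. With shWdr5 it was at 158 and 166 CPM against 114 and 111 CPM for the same control libraries in the other table (0.53 ± 0.05, edgeR adjusted p = 4.9e-09). None of these groups overlapped, as for 70.8% to 81% of all tested genes in those tables. It did not pass in the other 4 comparisons, where its log2 fold change lay between -0.15 (RYBP deletion, edgeR adjusted p = 0.13) and 0.18 (rTRS, 0.082); without WT replicate 2 the TF-AA value was -0.22 with an adjusted p of 0.047. The overlap with Npcd applies to each of these counts.

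Phc1, the main polyhomeotic protein of ESCs and the most abundant of the 7 transcripts, was lower in 5 comparisons. It was at 654 and 662 CPM in Rybp+/+ and at 488 and 481 CPM in Rybp-/- (-0.44 ± 0.03, edgeR adjusted p = 1.8e-14). It was at 522 and 531 CPM in shEV and at 392 and 395 CPM in shRybp (-0.42 ± 0.04, edgeR adjusted p = 9.1e-08). The falls were by 26.4% and 25.3%, in 2 lines and by 2 means of depletion. With the RYBP deletion it was at 443 and 471 CPM against 553 and 551 CPM (-0.27 ± 0.04, edgeR adjusted p = 6.2e-06). In the rTRS line it was at 429 and 420 CPM in the libraries labelled DOX against 494 and 480 CPM (-0.20 ± 0.05, edgeR adjusted p = 0.011), a call lost without NTC replicate 1 (adjusted p = 0.08) or DOX replicate 2 (0.078). With the TF-AA mutation it was at 292 and 273 CPM against 357 and 330 CPM (-0.28 ± 0.08, edgeR adjusted p = 0.0074), a call lost without TF-AA replicate 1 (0.059) or replicate 2 (0.22). In these 5 comparisons the test libraries lay below both controls, where 63.7% to 75.6% of all tested genes had groups that did not overlap. The 5 falls lay at the 31.9th to 70.9th percentile of absolute log2 fold changes in their tables. Values were close with shWdr5 (507 and 506 against 491 and 498 CPM; 95% interval of the log2 fold change -0.05 to 0.12) and with induced RYBP (473 and 473 against 483 and 466 CPM; -0.09 to 0.08).

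Phc2, whose protein polymerises through its SAM domain and gathers PRC1 into clusters, was higher in 5 comparisons, without overlap of the groups, as for 65% to 81% of all tested genes in those tables. It was at 24.7 and 24.5 CPM in Rybp+/+ and at 44.3 and 46 CPM in Rybp-/-, 1.84-fold higher (0.88 ± 0.06, edgeR adjusted p = 1.3e-14). It was at 38.9 and 42 CPM in shEV and at 64.5 and 65.7 CPM in shRybp, 1.61-fold higher (0.69 ± 0.06, edgeR adjusted p = 4.6e-08). With shWdr5 it was at 73.7 and 71.3 CPM against 37 and 39.8 CPM, 1.89-fold higher (0.92 ± 0.06, edgeR adjusted p = 1.8e-11). These 3 rises lay at the 75.3rd to 87th percentile of absolute log2 fold changes in their tables. With the RYBP deletion it was at 62.7 and 77.3 CPM against 42.1 and 41.6 CPM, 1.67-fold higher (0.74 ± 0.08, edgeR adjusted p = 6.6e-09). In the rTRS line it was at 88.2 and 77.4 CPM in the libraries labelled DOX against 46 and 39.4 CPM, 1.94-fold higher (0.96 ± 0.09, edgeR adjusted p = 3.6e-06; 1.05 without the DOX library whose assignment is a judgement). Every one of these calls held under each alternative fit and with any 1 library left out. The groups overlapped with the TF-AA mutation (31.2 and 26.7 against 29.9 and 24.9 CPM; 95% interval of the log2 fold change -0.15 to 0.31). With induced RYBP it was at 21.5 and 19.7 CPM against 23.9 and 22.9 CPM with vehicle (-0.18 ± 0.11, edgeR adjusted p = 0.41). In all 5 tables the Phc2 rise stands beside shifts in markers of other cell types, whose part in it was not tested. Such shifts were also present with the TF-AA mutation, where the Phc2 groups overlapped. There the fibroblast sum went from 11 to 11.7 CPM to 24 to 24.7 CPM and the primitive endoderm sum from 10.8 to 11.4 CPM to 19.8 to 20.1 CPM. The neural and ESC marker sums given above were lower in both knockdowns and in the rTRS line, though 1 of the 3 neural markers was higher in each. Of the 10 ESC markers, 4 were higher with shRybp and 2 with shWdr5, and the ESC sum was higher in Rybp-/-. With shRybp 2 of 4 trophectoderm markers, Cdx2 and Gata3, were higher and Eomes was lower. Further shifts were higher fibroblast (56.5 to 57.2 CPM to 114 to 120 CPM) and primitive endoderm sums (8.59 to 9.83 CPM to 16.3 to 17.7 CPM) in Rybp-/-, and higher primitive endoderm sums with shRybp (16.9 to 20.6 CPM to 29 to 30.9 CPM, with a fibroblast sum of 18.6 to 18.8 CPM to 30.7 to 31.9 CPM) and shWdr5 (16.6 to 19.9 CPM to 36.2 to 36.3 CPM). With the RYBP deletion the fibroblast (424 to 431 CPM to 343 to 367 CPM) and mesoderm sums (30.4 to 31.8 CPM to 18.7 CPM) were lower. In the libraries labelled DOX the trophectoderm (10.3 to 12.3 CPM to 43 to 49.3 CPM), mesoderm (11.9 to 14 CPM to 57.2 to 62.6 CPM) and primitive endoderm sums (7.78 to 9.41 CPM to 20.7 to 21.3 CPM) were higher.

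Phc3, the least abundant polyhomeotic transcript, was called in 2 comparisons, in opposite directions. It was at 33 and 31.2 CPM in Rybp+/+ and at 29.5 and 25.9 CPM in Rybp-/- (-0.22 ± 0.06, edgeR adjusted p = 0.0059), a call lost without Rybp-/- replicate 2 (-0.13, adjusted p = 0.22). With shWdr5 it was at 15.5 and 16.2 CPM against 13.8 and 13 CPM (0.24 ± 0.10, edgeR adjusted p = 0.046). This call was lost in DESeq2 (adjusted p = 0.19), without the low-count filter (0.073), and without shEV replicate 2 (0.18), shWdr5 replicate 1 (0.061) or shWdr5 replicate 2 (0.16). In the other 5 comparisons the log2 fold change lay between -0.21 and 0.13 and did not pass. Within the PHC group, Phc1 and Phc3 were thus lower in Rybp-/- and Phc2 was higher.

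The members were then set beside other Polycomb genes, by lists that were chosen with earlier results of these data known. Of 6 other canonical PRC1 subunits (Ring1, Rnf2, Pcgf2, Bmi1, Scmh1 and Scml2), 1 rose and 1 fell in the Rybp knockout, 3 rose and 3 fell in the Rybp knockdown, 2 rose and 1 fell in the Wdr5 knockdown, 2 rose and 0 fell with TF-AA, 2 rose and 2 fell with the RYBP deletion, 0 moved with induced RYBP, and 2 rose and 1 fell in the rTRS line. These counts and those of the lists that follow are to be read against the shares of all tested genes, in the same order 22.8% higher and 22.7% lower, 26.8% and 26%, 31.5% and 31.5%, 14.4% and 16.1%, 16.1% and 17%, 3.63% and 2.39%, and 23% and 20.4%. Rnf2, which encodes RING1B and is named here after its values had been seen, was lower with shRybp (-0.27 ± 0.05, edgeR adjusted p = 0.00031) and with the RYBP deletion (-0.31 ± 0.05, 3.3e-05), and did not pass in the other 5. Bmi1, a PCGF subunit of canonical PRC1, was higher with shRybp (10.3 and 10.9 against 6.04 and 5.74 CPM; 0.85 ± 0.13, edgeR adjusted p = 2.5e-05) and lower with the RYBP deletion (17.5 and 14.9 against 27.9 and 25.5 CPM; -0.72 ± 0.11, 3.6e-06). With shWdr5 Bmi1 was at 19.1 and 20.2 CPM against 5.71 and 5.52 CPM (1.81 ± 0.12, edgeR adjusted p = 4.7e-12). Scml2 had 200 and 244 reads with the TF-AA mutation against 10 and 21 in WT (9.94 and 13 CPM against 0.478 and 1.04 CPM), so it reached the naming minimum of 5 CPM only through the group where it was high.

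Of 17 variant PRC1 subunits, Rybp included, 5 rose and 8 fell in the Rybp knockout, 8 and 9 in the Rybp knockdown, 9 and 2 in the Wdr5 knockdown, 3 and 6 with TF-AA, 4 and 7 with the RYBP deletion, 1 and 0 with induced RYBP, and 8 and 4 in the rTRS line. The 1 that rose with induced RYBP was Rybp itself. The genes named from this list are given with every comparison in which they passed. E2f6, of the PCGF6 complex, rose in the Rybp knockout (0.64 ± 0.06, edgeR adjusted p = 1.1e-10), with shRybp (0.73), with shWdr5 (0.48), with TF-AA (1.12) and with the RYBP deletion (0.41). Pcgf5 rose with shRybp (0.86 ± 0.13, edgeR adjusted p = 1.8e-05), with the RYBP deletion (0.72) and in the rTRS line (0.60), and fell in the Rybp knockout (-0.23). Kdm2b, the CpG-binding subunit of the PCGF1 complex, fell in the Rybp knockout (-0.60), with shRybp (-0.70), with TF-AA (-0.97 ± 0.08, edgeR adjusted p = 2.4e-09) and with the RYBP deletion (-0.68), and rose in the rTRS line (0.42). Auts2 fell in the Rybp knockout (-0.60), with shRybp (-0.27), with TF-AA (-0.68) and with the RYBP deletion (-0.28), and rose in the rTRS line (0.42). Yaf2, the paralogue of Rybp, rose in the Rybp knockout (0.26), with shRybp (0.57), with the RYBP deletion (0.34) and in the rTRS line (0.88 ± 0.10, edgeR adjusted p = 2.1e-05).

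Of 12 PRC2 subunits, 5 rose and 3 fell in the Rybp knockout, 3 and 7 in the Rybp knockdown, 5 and 5 in the Wdr5 knockdown, 0 and 4 with TF-AA, 4 and 3 with the RYBP deletion, 3 and 3 with induced RYBP, and 3 and 7 in the rTRS line. Epop, a PRC2 accessory subunit, was higher in Rybp-/- (0.73 ± 0.05, edgeR adjusted p = 9.5e-15) and lower in the other 6, with shRybp (-1.17), shWdr5 (-2.04), TF-AA (-0.27), the RYBP deletion (-0.30), induced RYBP (-0.37) and in the rTRS line (-0.49). Ezh1, a catalytic subunit, was lower in Rybp-/- (-0.61 ± 0.05, edgeR adjusted p = 7.6e-12) and higher with shRybp (0.22), shWdr5 (0.49), induced RYBP (0.43) and in the rTRS line (0.41). Phf1, a PHD finger subunit, rose with shRybp (0.52), with shWdr5 (1.27 ± 0.08, edgeR adjusted p = 3.3e-12) and in the rTRS line, where it reached the naming minimum of 5 CPM only with DOX (6.26 and 7.27 CPM against 4.38 and 4.17 CPM). Phf19 fell with shRybp (-0.88), shWdr5 (-1.53 ± 0.15, edgeR adjusted p = 4.4e-09) and TF-AA (-0.64) and rose with the RYBP deletion (0.62); in the shWdr5 table it reached the minimum only in shEV. Jarid2 rose in the Rybp knockout (0.22) and fell with shRybp (-0.12), shWdr5 (-0.22), TF-AA (-0.23), induced RYBP (-0.14) and in the rTRS line (-1.03 ± 0.06, edgeR adjusted p = 2.5e-08). Eed, the H3K27me3-binding core subunit, rose in the Rybp knockout (0.13) and fell with shRybp (-0.64), shWdr5 (-0.44), the RYBP deletion (-0.53), induced RYBP (-0.20) and in the rTRS line (-0.71 ± 0.07, edgeR adjusted p = 2.8e-06). Of the 3 HP1 genes Cbx1, Cbx3 and Cbx5, whose chromodomains read H3K9 methylation and which are not PRC1 subunits, 2 fell in the Rybp knockout, 3 in the Rybp knockdown, 1 in the Wdr5 knockdown, 3 with the RYBP deletion and 2 in the rTRS line, and 0 rose in the 7 comparisons. The shares of all tested genes called lower in those 5 tables were 22.7%, 26%, 31.5%, 17% and 20.4%.

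Peak lists were read at the members' start sites, as any peak within 2.5 kb of an annotated start. Lists were called separately, on merged replicates or (STAT3 in Rybp+/+ and Rybp-/-, RING1B in shEV and shStat3) on single libraries, as broad peaks for RING1B, so that a peak in 1 list and not in another is a description with no test. H3K4me3, the mark of active or poised promoters, had a peak at all 7 members in Rybp+/+ and in Rybp-/-, as did 67.8% and 68% of 22367 protein-coding genes. H3K27ac, a mark of active promoters and enhancers, had a peak at 6 of the 7 in both genotypes, against 51.6% and 54.8% of genes. The exception in both was Cbx8, the member with the fewest reads. At Cbx7 and Phc1 the highest promoter peaks of H3K27ac were 35.9-fold and 27.8-fold enriched in Rybp+/+ and 37.4-fold and 34.3-fold in Rybp-/-, at the 96.6th to 99.2nd percentile of their lists. The highest Cbx7 peak (chr15:79799260-79801680 in Rybp+/+) lay over the outermost start site, not over the printed internal promoter. Over that printed promoter the H3K27ac peak was 23.4-fold enriched in Rybp+/+ and 24.5-fold in Rybp-/-. H3K27ac peaks that reached within 2.5 kb of Cbx7 had a summed width of 42.93 kb in Rybp+/+ (23 peaks) and 34.77 kb in Rybp-/- (29 peaks). Those at Phc1 had summed widths of 25.84 kb and 22.14 kb, and the widest of them ran beyond the 2.5 kb flank in both genotypes.

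WDR5, a subunit of H3K4 methyltransferase complexes, had a promoter peak at 7 members in Rybp+/+ and at 6 in Rybp-/-, against 46.8% and 49.2% of genes. The peak at the Cbx7 promoter printed above, chr15:79762454-79763477 with 5.56-fold enrichment in Rybp+/+, had no counterpart in the Rybp-/- list, while 3 other WDR5 peaks inside Cbx7 were in both lists. At Cbx8 the WDR5 peak was 14.7-fold enriched in Rybp+/+ and 22.3-fold in Rybp-/-. At Phc2 the 5′ promoter peak was 4.71-fold enriched in Rybp+/+ and 8.89-fold in Rybp-/-, and a peak over the internal promoter was 8.06-fold in Rybp+/+. In Rybp-/- no WDR5 peak overlapped the printed internal promoter, and the nearest, downstream of it at chr4:128405036-128405562, was weak (3.16-fold, −log10 q of 3.32, at the 7.9th percentile of its list).

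RING1B, the catalytic core of PRC1, had a promoter peak at 4 members with shEV (Cbx2, Cbx6, Cbx8 and Phc2) and at 4 with shStat3 (Cbx2, Cbx8, Phc2 and Phc3), against 46% and 41.6% of genes. In the R1 line with the DOX-inducible Rybp_Stat3 integration it had one at 7 members without DOX and at 5 with DOX, against 54.7% and 41.9% of genes. At a −log10 q of at least 5 the 4 counts were 3 with shEV, 3 with shStat3, 6 without DOX and 3 with DOX, against 29%, 29%, 43.7% and 31.2% of genes. Cbx2, Cbx8 and Phc2 were the 3 with shEV, with shStat3 and with DOX, and Phc1 was the member lost without DOX. These 3 had a RING1B promoter peak in all 4 lists at either rule. Cbx8 stood out among the members by the width and height of its peak. It lay in a single RING1B domain of 26.75 kb with shEV (chr11:118894820-118921572, 44.2-fold, at the 97.2nd percentile of its list), of 26.72 kb with shStat3 (41.3-fold), of 26.95 kb without DOX (53.5-fold) and of 26.09 kb with DOX (39.6-fold). Its neighbour Cbx2 had a separate, narrower RING1B peak over its start site, of 2.92 kb with shEV (11.4-fold), 2.76 kb with shStat3 (10.9-fold), 2.68 kb without DOX (15.9-fold) and 3.35 kb with DOX (8.82-fold). Phc2 had RING1B peaks at both its 5′ promoter (6.54-fold, 8.38-fold, 7.82-fold and 5.86-fold in the same order, the shStat3 peak lying downstream of the printed sequence) and its internal promoter (3.24-fold, 4.8-fold, 5.8-fold and 3.24-fold, with −log10 q of 1.91, 6.19, 8.17 and 2.36). Cbx7 and Phc1 had a RING1B promoter peak only without DOX (6.47-fold and 3.17-fold), and that of Phc1 had a −log10 q of 1.92.

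STAT3, the transcription factor activated by leukaemia inhibitory factor, had a promoter peak at 1 member, Phc2, in Rybp+/+ and in Rybp-/-, against 7.78% and 6.56% of genes. The Rybp+/+ peak (chr4:128404729-128405226, 4.46-fold) overlapped the internal promoter sequence of Phc2 printed above. The Rybp-/- peak (chr4:128404940-128405286, 3.58-fold, −log10 q of 3.27) lay downstream of that sequence without overlapping it, and at a −log10 q of at least 5 the Rybp-/- count was 0 and the Rybp+/+ count 1, against 2.84% and 3.1% of genes. In the R1 line with the integration, STAT3 had a promoter peak at 2 members without DOX (Cbx2 and Cbx7; 1, Cbx7, at a −log10 q of at least 5, against 3.76% of genes) and at all 7 with DOX (also 7 at that rule, against 53.4%), while the share of all genes went from 9.04% to 57.6% and the number of peaks from 2816 to 30663. The gain at the members therefore stands beside a gain over many promoters. With DOX the highest STAT3 promoter peaks among the members were at Cbx8 (10.7-fold, at the 97.3rd percentile, in the gene body 3.56 kb from its outermost start site and near an annotated alternative one) and at the 5′ promoter of Phc2 (7.09-fold, at the 87th percentile), and 7 STAT3 peaks lay over Cbx8 and its flanks where none had been called without DOX.

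**Figure D3:**
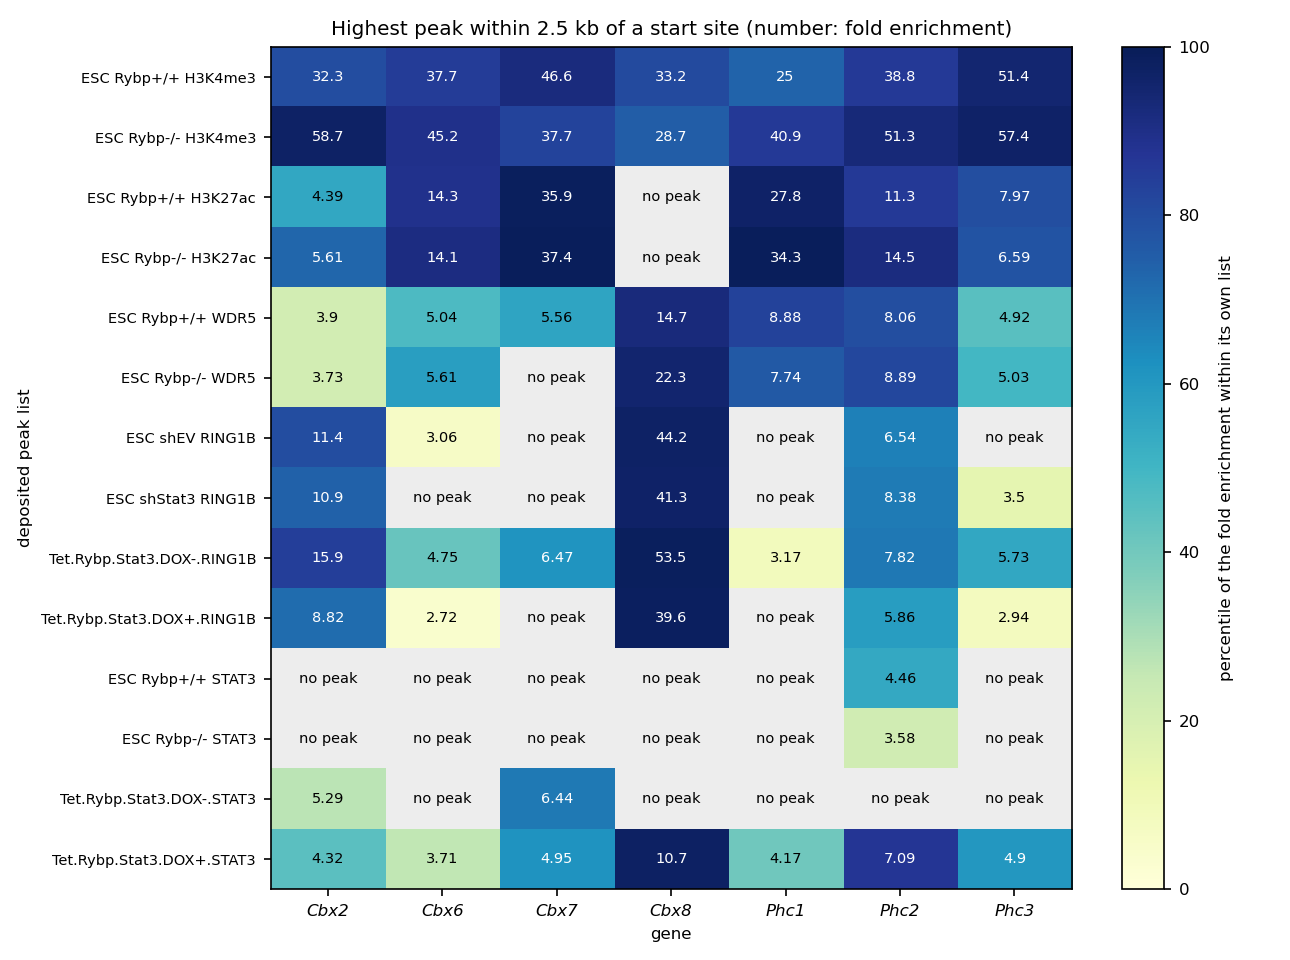
Fold enrichment (number in each cell) of the highest peak within 2.5 kb of a start site of each gene (columns) in each of the 14 peak lists (rows), shaded by its percentile within its own list; grey cells have no peak. Cbx8 has no H3K27ac peak and the highest RING1B enrichment in all 4 RING1B lists, from 39.6-fold to 53.5-fold.

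**Figure D4:**
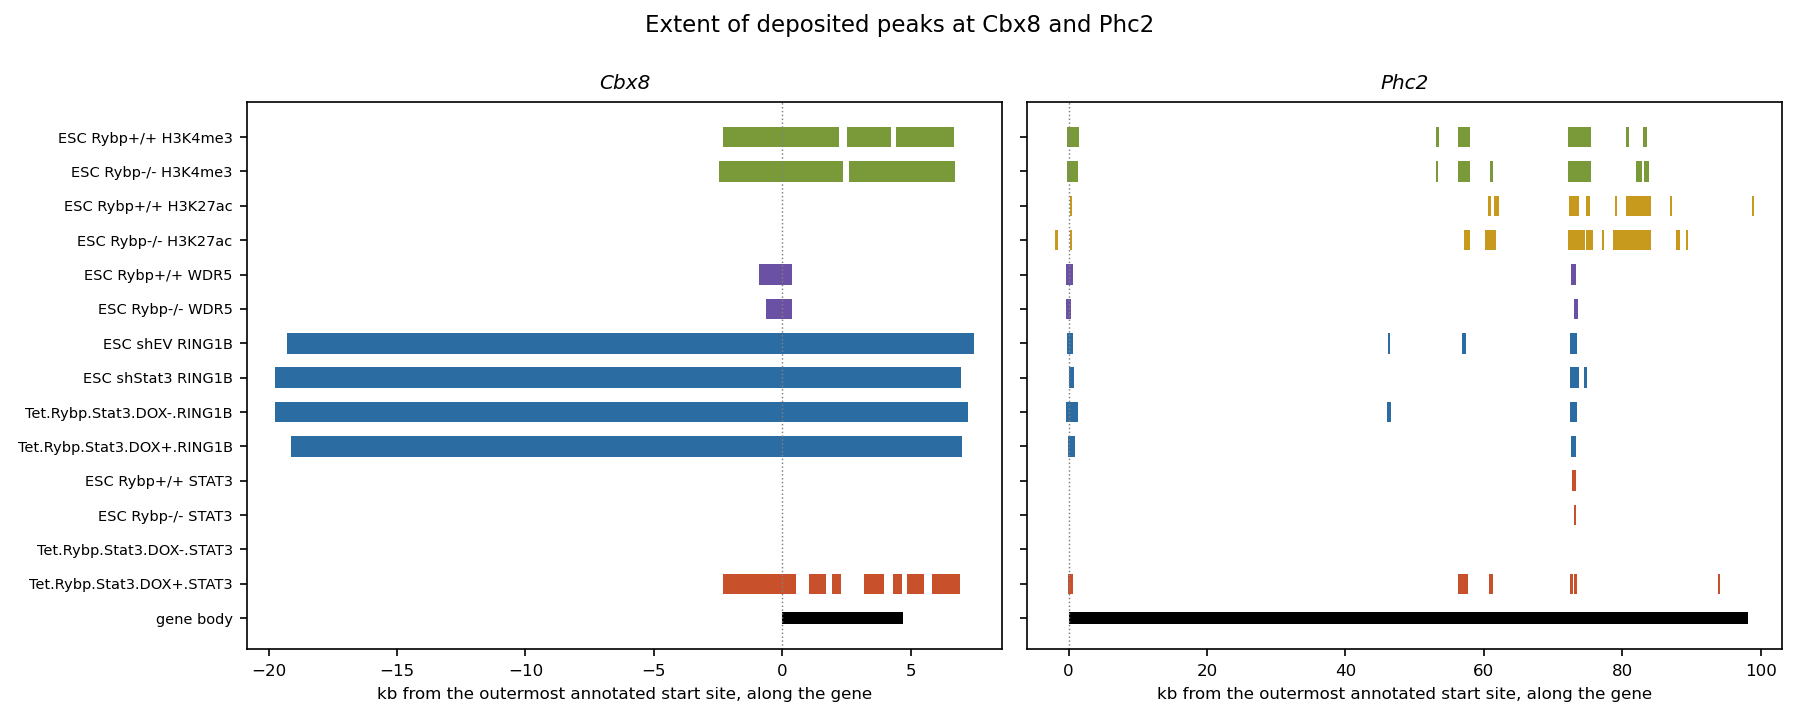
Extent of all peaks that reach within 2.5 kb of Cbx8 or Phc2 (bars, 1 row per peak list) against distance in kb from the outermost annotated start site, positive along the gene; the black bar is the gene. RING1B covers the whole of Cbx8 in a domain of 26.09 to 26.95 kb in 4 lists, whereas at Phc2 peaks of RING1B, WDR5 and H3K4me3 sit at the 5′ end and again at or near the internal promoter, 72.89 to 73.09 kb downstream for RING1B.

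Likeness of pattern was measured as Pearson's r of log2(CPM + 1), centred within each table, over the 28 library columns, which include the shEV libraries in 2 tables. It is a description of 13126 genes passing in all tables and carries no test. Nearest to Phc2 were Mesdc1 (r = 0.97) and Fam43a (0.94), and nearest to Phc1 were Usp28 (0.95) and Ehmt2 (0.94). Nearest to Cbx7 were Uck2 and Mthfd1l (0.90 each), to Cbx6 Depdc5 (0.95) and Kctd3 (0.90), and to Cbx2 Tacc3 (0.87) and Eif2b2 (0.85). Cbx8 (Pgam2, 0.80; Fam46c, 0.79) and Phc3 (SNORA53, 0.76; Ascc1, 0.72) had lower best values. Between members, Phc2 was inverse to Cbx7 (r = -0.73) and to Phc1 (-0.68), Phc1 was like Cbx6 (0.66) and Cbx7 (0.65), and Cbx2 lay between -0.20 and 0.05 with every other member.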

How the data were processed

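The deposited RNA tables hold whole-number counts per gene, which the authors made with Trim Galore, STAR on mm9 and HTSeq-count, beside gene length. The deposited peak lists hold fold enrichment and −log10 q, which the authors made with Bowtie2, duplicate removal and MACS2. The lowest −log10 q in a list was 1.01 to 1.38, so the lists reach weaker peaks than the false discovery rate in the study's methods allows. Versions are not given here. The untreated columns of the RYBP induction table (NTC) were taken as vehicle. Rows naming no gene held 13.7 to 26.5% of reads where a table had them and were left out.

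Each table was fitted alone with edgeR 4.0.16 (TMM, filterByExpr, quasi-likelihood test, Benjamini-Hochberg over all tested genes, calls under 0.05), all genes entering the fit. CPM used TMM-scaled totals, and RPKM divided CPM by gene length, taken from the other tables for the RYBP induction. SE is of the log2 fold change. Scripts were tested on simulated data. Alternatives were DESeq2 1.42.0, RLE scaling, no low-count filter, a replicate block, a fold minimum, each library left out, and, for peaks, a 1 kb window, −log10 q of at least 5 and 200 bp overlap.

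The members, lists and tests were chosen with earlier results of these data known. The rule for named genes was all 7 members, and up to 2 called genes per direction and comparison from the Polycomb lists at 5 CPM or more. Duplicate libraries were looked for and none was found, apart from the shEV libraries that stand in both knockdown tables.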

Additional observations from a re-analysis of the deposited data

Results flagged for a closer look

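Cbx2 was higher in the Rybp knockout (log2 fold change 0.22) and lower in the Rybp knockdown (-0.39), a gap of 0.61. The groups did not overlap in either table, as for 70.8% and 75.6% of all tested genes. The difference between the comparisons, which come from the R7.15 and R1 lines, was not tested.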

How the results depend on the processing

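Of 392 alternative values of the members' log2 fold changes, 348 kept their direction and side of the threshold, 18 fell short of it, 9 newly passed it and 17 turned in sign, 0 of which were called in either fit. Those that turned in sign with 1 library left out ranged from -0.01 to 1.23 for Cbx8 in the Rybp knockdown, -0.22 to 0.01 for Cbx6 with TF-AA, -0.05 to 0.22 for Phc2 with TF-AA, -0.17 to 0.38 for Phc3 with TF-AA, -0.08 to 0.04 for Cbx6 with induced RYBP, 0 to 0.01 for Cbx7 with induced RYBP, -1 to 0.67 for Cbx8 with induced RYBP, -0.03 to 0.02 for Phc1 with induced RYBP, -0.01 to 0.20 for Cbx2 in the rTRS line, -0.39 to 0.24 for Cbx8 in the rTRS line and -0.20 to 0.11 for Phc3 in the rTRS line. Cbx8 with induced RYBP was at -0.09 with the replicate block. With an absolute log2 fold change of at least 0.5, members called numbered 1 in the Rybp knockout, 2 in the Rybp knockdown, 3 in the Wdr5 knockdown, 1 with TF-AA, 1 with the RYBP deletion and 1 in the rTRS line. With 1 library left out they numbered 5 to 7, 4 to 6, 5 to 6, 1 to 5, 3 to 4 and 1 to 2 in the same order, and 0 to 0 with induced RYBP. Genes called over all genes fell with the fold minimum to 2809 from 7720 (Rybp knockout), 4322 from 8721 (Rybp knockdown), 5600 from 9547 (Wdr5 knockdown), 2503 from 4412 (TF-AA), 2063 from 4814 (RYBP deletion), 373 from 899 (RYBP induction) and 4019 from 7070 (rTRS). DESeq2 called 2980 with the RYBP deletion. With 1 library left out, 2724 to 4767 were called with TF-AA and 406 to 1566 with induced RYBP. At a −log10 q of at least 5, members with a RING1B promoter peak numbered 3 with DOX (5 before; 31.2% of all genes), 6 without DOX (7 before; 43.7%), 3 with shEV (4 before; 29%) and 3 with shStat3 (4 before; 29%), and those with a STAT3 peak 1 without DOX (2 before; 3.76%) and 0 in Rybp-/- (1 before; 2.84%). The cause of these shifts was not tested, beyond the stricter rule itself.

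With the replicate block, members called numbered 7, 6, 6, 4, 4, 0 and 3 in the order Rybp knockout, Rybp knockdown, Wdr5 knockdown, TF-AA, RYBP deletion, RYBP induction and rTRS, where 45.6%, 55.1%, 65.1%, 38.2%, 35.5%, 8.11% and 52.5% of all tested genes were called (45.5%, 52.7%, 63%, 30.5%, 33%, 6.02% and 43.4% without it), and the calls gained were Cbx8 in the knockout (edgeR adjusted p = 0.049) and the Rybp knockdown (0.044), Cbx7 with TF-AA (0.02) and Cbx6 in the rTRS line (0.012). The labels do not say whether same-numbered libraries were prepared together. Correlations of their deviations ranged from 0 to 0.2, highest in the rTRS (0.2) and TF-AA (0.14) tables. Cbx8 is limited by its 10 to 166 reads per library, and peak lists without replicates carry no error.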
